A study of Mus musculus with 6 samples.

Results

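Potassium channel genes were read in mouse brain RNA as the probe sets of the Affymetrix Mouse Genome 430 2.0 array that carry exactly 1 gene symbol beginning with Kcn. Each probe set combines several short probes for the same transcript. The rule found 167 such probe sets, standing for 84 genes, among the 45101 of the deposited table, and no dim probe set was removed. By symbol, 65 belonged to voltage-gated (Kv) channels, 31 to inward rectifiers (Kir), 18 to two-pore-domain (K2P) channels, 16 to calcium- or sodium-activated channels, 29 to auxiliary subunits and 8 to non-coding transcripts named after a channel gene. The study hybridised 1 array per mouse, from 4 mice lacking melanotransferrin (MTf -/-), which is encoded by Meltf and binds iron at the cell surface, and from 2 wild-type (MTf +/+) littermates. All 6 were females aged 123 days, with the strain given as C57BL/6 in wild type and as C57BL/6 - Lucy in the knockout. No source used here says what Lucy stands for, whether the knockout mice came from 1 founder or which part of Meltf was deleted. The comparison asks which brain transcripts differ when melanotransferrin is missing.

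Potassium channels let potassium leave or enter a cell along its gradient and so set the resting potential, shape the action potential and limit repetitive firing. Each Kv channel is built from 4 subunits that open on depolarisation, Kir channels pass current mainly inward near rest, and K2P channels carry the background leak. Calcium- and sodium-activated channels tie the current to internal ions, and auxiliary subunits bind the pore-forming ones and alter their trafficking and gating. In brain most of these genes are neuronal, while Kir4.1, the product of Kcnj10, is the main potassium channel of astrocytes and clears potassium from around active neurons.

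Signals are given in the order knockout 1 to 4 and wild type 1 and 2, where the numbers only name an array. Wild type 1 was the dimmest array. Its median signal was 192.5 against 238.2 to 278.3 on the other 5 arrays, and 24.5% of its probe sets lay below 49.6, the 20th percentile of the table, against 17.6% to 20.2%. Over the channel probe sets its median deviation from each probe set's mean was -0.11 on the log2 scale, and it was -0.12 over all probe sets. Knockout 2 stood apart in regional content, as described further on. Meltf, the targeted gene, gave knockout signals of 80.7, 132.9, 155.9 and 84.1 against wild-type signals of 146.5 and 228.7 on its only probe set, with overlap between the groups. Since its position relative to the deletion is unknown here, this leaves the labels unchecked. The precision is set by how few arrays there are, and an exact permutation test of 4 against 2 arrays cannot give a p below 0.0667. Signal from brain tissue cannot tell fewer cells of a type from less RNA per cell.

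No potassium channel gene passed the test between the groups, and their counts and median lay near those of the whole array. Signals were compared as log2(signal + 49.6) in limma over all 45037 probe sets that are not controls, with Benjamini-Hochberg adjustment, and a fold change on this scale understates the change of dim genes. Of the 167 channel probe sets, 0 passed an adjusted p of 0.05, as did 0% of all probe sets, and the smallest adjusted p among the channels was 0.738. At an unadjusted p below 0.05 there were 9 channel probe sets, or 5.39%, against 6.76% of all probe sets. Of these, 6 were higher in the knockout, 3.59% against 4.92% of all, and 3 were lower, 1.8% against 1.84% of all. In 20 probe sets, or 12%, the 4 knockout values did not overlap the 2 wild-type values, against 16.1% of all probe sets. The knockout lay above in 13, 7.78% against 11.3%, and below in 7, 4.19% against 4.81%. Each of these shares lay near or below that of the whole array. The count of 9 became 14, or 8.38%, without knockout 2, against 6.04% of all probe sets. Without wild type 2 it was 23, or 13.8%, of which 19 were higher, against 11.8% of all. After median centring it was 15, or 8.98%, with 2 higher and 13 lower, against 8.76% of all. It was 11 after quantile normalisation, with 6 higher and 5 lower, and 11 without the trend, with 8 higher, or 6.59% in both, against 5.92% and 6.84% of all.

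The median log2 fold change, knockout minus wild type, was 0.059 over the 167 channel probe sets and 0.078 over all. Of the channel probe sets 62.3% had a value above 0, against 60.3% of all. This split followed the scaling, being 49.1% after quantile normalisation and 32.3% after median centring, while the channel median stayed within 0.026 of the median of all probe sets in each setting tried. By subfamily the medians were 0.059 for Kv, 0.17 for Kir, 0.058 for K2P, 0.028 for the ion-activated channels and 0.0064 for the auxiliary subunits, and all 5 were below 0 after median centring, which moved the median of all probe sets to -0.14. All 9 probe sets with an unadjusted p below 0.05 belonged to Kv, with 5 of 65, and Kir, with 4 of 31. The share of all probe sets was 6.76%, and the K2P, ion-activated, auxiliary and non-coding groups held only 18, 16, 29 and 8 probe sets. The spread within each subfamily was wider than the distance between their medians, as the quartiles of -0.080 and 0.28 for Kv and of -0.13 and 0.51 for Kir show.

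**Figure D1:**
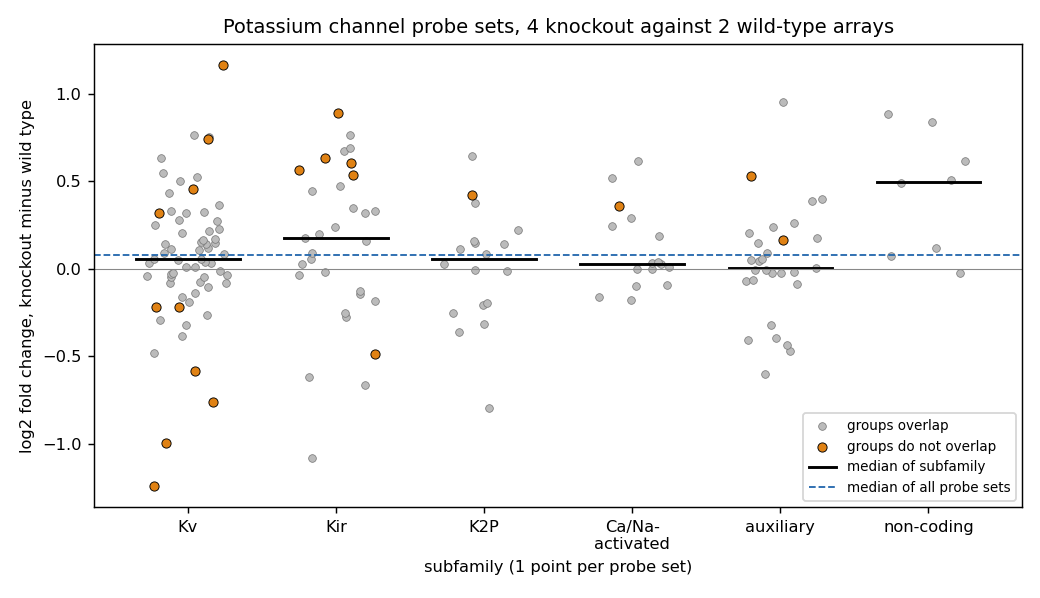
Log2 fold change (knockout minus wild type, on log2(signal + 49.6)) of each of the 167 probe sets by subfamily, with the subfamily median as a black bar and the median of all 45037 probe sets, 0.078, as a dashed line. The 20 orange points, whose groups did not overlap, lie on both sides of 0. They include 10 of 65 Kv and 6 of 31 Kir probe sets, against 16.1% of all probe sets.

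Among the inward rectifiers, Kcnj10 had the smallest p. It gave knockout signals of 4971, 5016, 4315 and 5597 against wild-type signals of 7213 and 6697. Both wild-type mice lay above all 4 knockout mice. The log2 fold change was -0.48 (SE 0.134) with a 95% confidence interval of -0.78 to -0.19, or 1.40-fold lower (limma unadjusted p = 0.0048, adjusted p = 0.738). With any 1 array left out it stayed between -0.54 and -0.42, and it was -0.45 after quantile normalisation and -0.70 after median centring. Kcnj16, whose Kir5.1 subunit pairs with Kir4.1 in astrocytes, read 371.8 ± 69.1 (SD, n = 4) against 455.1 ± 11 (SD, n = 2) on its brightest probe set. The groups overlapped, and its log2 fold change was -0.28.

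The other astrocyte markers pointed in both directions. Of the 10 genes on the astrocyte list, all found on the array, 6 had a negative and 4 a positive log2 fold change, and none lay below 49.6 on all arrays. The signals of the list summed to 151463 to 169400.0 in the knockout and to 140180 to 172454 in wild type. The brightest genes weigh most in these sums, with Aldoc alone reading 40746 to 61330 over the 6 arrays. Aqp4, the water channel that sits beside Kir4.1 on astrocyte endfeet, gave knockout signals of 5901, 4117, 5316 and 5881 against wild-type signals of 9519.5 and 7085, without overlap. Gfap, the astrocyte intermediate filament, also separated the groups without overlap, while every other gene of the list overlapped. Of all probe sets 16.1% separated the groups. The log2 fold change of Gfap was -0.63 against -0.64 for Aqp4 (limma unadjusted p = 0.0046 and 0.0053, adjusted p = 0.738 and 0.738). Also negative were Aldh1l1 (-0.41), Gjb6 (-0.38), Slc4a4 (-0.36) and S100b (-0.16). Above 0 lay the glutamate transporters Slc1a2 (0.30) and Slc1a3 (0.16), the gap junction gene Gja1 (0.011) and Aldoc (0.21). Relative to all probe sets, the mean log2 level of the list was 0.32 in wild type 1, 0.078 in wild type 2 and -0.21 to -0.042 in the knockouts. The part of astrocyte content in the Kcnj10 value was not tested, and the Kcnj10 value without wild type 1 was -0.43.

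Kcnj3 and Kcnj4 lay on the other side. Kcnj4 encodes Kir2.3, a strong rectifier of forebrain neurons, and its only probe set gave knockout signals of 699.8, 1064, 840.1 and 842.7 against wild-type signals of 487.3 and 582.2. All 4 knockout mice lay above both wild-type mice, and the log2 fold change was 0.63 (SE 0.202, limma unadjusted p = 0.0109, adjusted p = 0.738). Kcnj3 encodes GIRK1, a subunit of the channels that G protein-coupled receptors open to quiet neurons. Its probe set 1444025_at gave knockout signals of 1048, 1079.6, 837.6 and 1216 against wild-type signals of 622.7 and 751.8, again without overlap, with a log2 fold change of 0.57 (SE 0.186, limma unadjusted p = 0.0127, adjusted p = 0.738). The brightest Kcnj3 probe set, 1455374_at, gave knockout signals of 5605, 4982, 2548 and 3213 against wild-type signals of 3196 and 2916. There knockouts 1 and 2 were high and knockouts 3 and 4 lay among the wild types, and the log2 fold change was 0.34. The other 2 Kcnj3 probe sets had 0.17 and 0.69, so all 4 lay above 0. After median centring 1421468_at, the lowest of them, lay below 0, while 1444025_at was 0.35 and Kcnj4 0.42.

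The promoters of these 3 genes are shown because Kcnj10 lay lower and Kcnj3 and Kcnj4 higher in the knockout without overlap, on probe sets well above the 20th percentile. Each is the 250 bases before the annotated RefSeq start in GRCm38.p6, 5′ to 3′, with every GC box (GGGCGG or CCGCCC, the letters bound by Sp1) in capitals. The stretches are chr1:172340960-172341209 on the plus strand for Kcnj10, chr2:55435720-55435969 on the plus strand for Kcnj3 and chr15:79505242-79505491 on the minus strand for Kcnj4.
Kcnj10: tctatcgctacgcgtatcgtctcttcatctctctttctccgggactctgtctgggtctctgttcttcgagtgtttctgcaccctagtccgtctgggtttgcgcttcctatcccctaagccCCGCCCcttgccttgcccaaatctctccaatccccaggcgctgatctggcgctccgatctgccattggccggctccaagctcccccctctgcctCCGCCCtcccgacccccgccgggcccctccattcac
Kcnj3: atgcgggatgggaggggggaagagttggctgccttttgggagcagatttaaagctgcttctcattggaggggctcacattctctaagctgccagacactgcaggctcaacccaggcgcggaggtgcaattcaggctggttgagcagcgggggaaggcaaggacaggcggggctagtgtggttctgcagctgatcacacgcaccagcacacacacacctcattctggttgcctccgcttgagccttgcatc
Kcnj4: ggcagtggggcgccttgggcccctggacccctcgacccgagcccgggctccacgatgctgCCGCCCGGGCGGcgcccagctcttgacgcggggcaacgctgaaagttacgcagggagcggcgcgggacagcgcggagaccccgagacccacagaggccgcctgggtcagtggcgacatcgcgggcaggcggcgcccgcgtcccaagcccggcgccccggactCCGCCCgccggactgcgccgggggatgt
Kcnj10 held 2 GC boxes, which began 130 and 36 bases before the start, Kcnj4 held 3, 2 of them side by side, and Kcnj3 held none. G and C made up 62% of the Kcnj10 stretch, 58.4% of that of Kcnj3 and 77.2% of that of Kcnj4. None of the 3 held the TATA box TATAAA (either strand), the E-box CACGTG or the cyclic AMP element TGACGTCA. Of the 84 channel genes 64 had an entry in the promoter table, with 89 starts in all. A GC box on either strand was present in 40 of these, or 44.9%, against 32.7% of all 32851 entries, and TATAAA in 3, or 3.37%, against 12.4%. The median G and C content of these starts was 58.8% against 52.4% of all, and its part in the motif shares was not tested. The E-box stood in 5.62% against 6.02%, and the cyclic AMP element in 0% against 1.55%. The 3 starts with TATAAA all belonged to Kir genes, of which 17 starts were listed. These matches describe letters in a window and show no binding.

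The remaining GIRK genes were Kcnj5, Kcnj6 and Kcnj9. Kcnj5, the GIRK4 gene, named after its values were seen, was dim on both of its probe sets, with overlapping groups and log2 fold changes of 0.67 and 0.32. Kcnj6, which encodes GIRK2, had low signals on all 5 of its probe sets. On the brightest of them it gave knockout signals of 178.6, 184.5, 158.0 and 250.3 against wild-type signals of 114.0 and 103.3, without overlap, a log2 fold change of 0.60 (limma adjusted p = 0.75), while the other 4 ran from -0.15 to 0.76. Kcnj9 encodes GIRK3 and is the next coding gene to Kcnj10 on chromosome 1. Its probe set 1450712_at gave knockout signals of 524.8, 2189, 408.3 and 1715 against wild-type signals of 2352 and 1848. Knockouts 1 and 3 were low and knockouts 2 and 4 lay near the wild types, which gave a log2 fold change of -1.08 (SE 0.565, limma adjusted p = 0.743). Without knockout 3 this was -0.70 and without knockout 2 -1.46. Another Kcnj9 probe set, 1428602_at, gave knockout signals of 958.4, 1314, 1267 and 1319.6 against wild-type signals of 1183 and 1262, a log2 fold change of -0.019, where knockout 1 alone was low.

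The genes of ATP-sensitive channels, which couple the current to the energy state of the cell, were Kcnj11 and Kcnj8. Kcnj11, the neuronal Kir6.2 subunit, gave knockout signals of 3223, 3324, 2612 and 2643 against wild-type signals of 2049 and 2621 on its bright probe set. Wild type 1 was the lowest and wild type 2 lay among the knockouts, and the log2 fold change of 0.33 was 0.16 without wild type 1. Kcnj8, the Kir6.1 subunit of pericytes, read 255.9 ± 78.4 (SD, n = 4) against 318.1 ± 134.5 (SD, n = 2). Kcnj13, the Kir7.1 channel of the choroid plexus, gave knockout signals of 1194, 1573, 1889 and 2130.2 against wild-type signals of 973.5 and 2114. Wild type 1 was the lowest array for Kcnj13, and it was the lowest for 2 and the highest for 1 of the 7 choroid plexus markers found. The mean log2 level of that list was 0.12 in wild type 1, 0.38 in wild type 2 and -0.36 to 0.27 in the knockouts, and its signals summed to 70412 to 105305 in the knockout and to 58019 and 95755 in wild types 1 and 2. Kcnj2, the Kir2.1 gene, lay below 49.6 on all 6 arrays of its only probe set.

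Kcnj14 and 1 of the 3 Kcnj15 probe sets also gave knockout values above both wild types. Kcnj14, named here after its values were seen, gave knockout signals of 182.5, 194.7, 221.9 and 233.2 against wild-type signals of 124.5 and 130.6, a log2 fold change of 0.54. The Kcnj15 probe set 1435354_at gave knockout signals of 64.6, 39.1, 49.8 and 88.5 against wild-type signals of 12.8 and 5.6. Its log2 fold change of 0.89 was 0.32 with an offset 4 times as large and 1.73 with one 0.25 times as large. A second Kcnj15 probe set, 1450185_a_at, had -0.66, which rested on the value of 108.2 in wild type 2 and was 0.015 without it. On the brightest, 1443054_at, the groups overlapped, and the log2 fold change was 0.24, or -0.43 without wild type 1 and 0.90 without wild type 2.

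**Figure D2:**
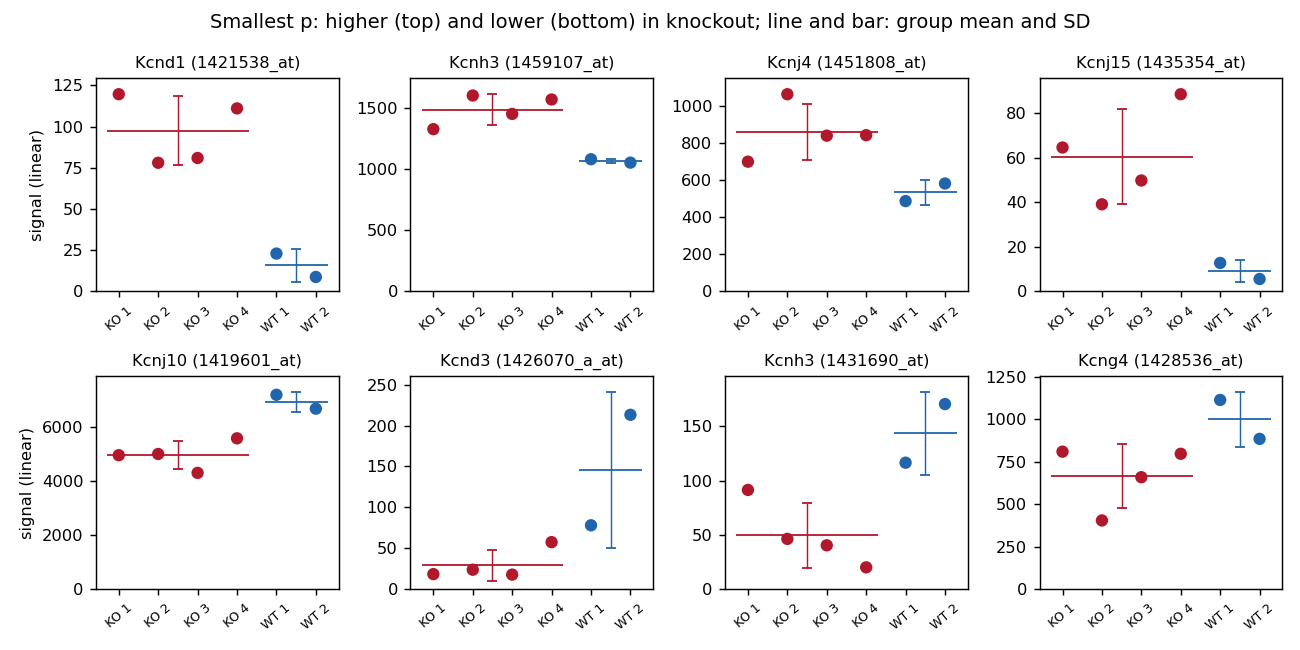
Deposited signal (linear axis from 0) of the 4 channel probe sets with the smallest p in each direction (higher on top, lower at the bottom) on each array, red for knockouts 1 to 4 and blue for wild types 1 and 2, with the group mean as a line and the SD as a bar. The groups overlap for none of the 8, which choosing by p on the same values favours, while 16.1% of all probe sets do not overlap. For Kcnj10 the knockouts lie at 4315 to 5597 and the wild types at 6697 and 7213.

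Kv1 and Kv3 channels repolarise axons and fast-firing cells. Kcna1, the axonal Kv1.1 subunit, gave knockout signals of 13040.1, 11428, 13745 and 13174 against wild-type signals of 12355 and 13145 on its brightest probe set. The groups overlapped and the log2 fold change was 0.0082 (SE 0.136), a 95% confidence interval of -0.29 to 0.31. Kcna2, its Kv1.2 partner, gave knockout signals of 15604, 13509.8, 15319 and 14719.7 against wild-type signals of 9001 and 15570.3, where wild type 1 alone was low. Its log2 fold change of 0.32 was -0.076 without that array. Kcna6 showed the same form on 1441049_at, with 380.0 in wild type 1 and 632.6 to 842.3 elsewhere, and its log2 fold change of 0.52 (limma unadjusted p = 0.0496, adjusted p = 0.738) became 0.17 when wild type 1 was left out. On the brightest Kcna6 probe set, 1456954_at, wild type 1 was not low, at 1947, and the log2 fold change was -0.14. Kcnc1, the Kv3.1 channel of fast-spiking and cerebellar granule cells, gave knockout signals of 10262, 6429, 8809 and 8844 against wild-type signals of 7450.3 and 9184 on its brightest probe set, lowest in knockout 2.

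Kcnc4, the Kv3.4 gene, lay below both wild types on both of its probe sets. The brighter, 1425090_s_at, gave knockout signals of 1888, 1908, 1856 and 1733 against wild-type signals of 2323 and 1994, a log2 fold change of -0.22. The dimmer, 1425089_at, gave -0.76 (limma adjusted p = 0.743). The suffix _s_at marks probes that can match more than 1 transcript.

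The Kv4 genes carry the fast A-type current of dendrites, and their probe sets disagreed. Kcnd2, the Kv4.2 gene, gave knockout signals of 7176, 6564, 6049 and 6281 against wild-type signals of 7803 and 7320.0 on the brightest of 4 probe sets. There both wild types lay above all knockouts, with a log2 fold change of -0.22 (SE 0.124, limma adjusted p = 0.755). On 1450773_at and 1422834_at it was 0.25 and 0.43, where wild type 1 was the lowest array at 2706 and 998.9. Without wild type 1 these were -0.077 and -0.28, and the brightest was -0.17. Kcnd3, the Kv4.3 gene, gave knockout signals of 4481, 4042, 3739 and 4374 against wild-type signals of 4542 and 4037 on its bright probe set, a log2 fold change of -0.045. A dim Kcnd3 probe set, 1426070_a_at, gave knockout signals of 18.4, 23.8, 17.8 and 57.5 against wild-type signals of 78.1 and 213.2, without overlap. Its log2 fold change of -1.24 was -0.72 without wild type 2 and -0.57 with an offset 4 times as large. Kcnd1, the Kv4.1 gene, had the smallest p of all channel probe sets, on 1421538_at, which gave knockout signals of 119.7, 78.1, 81 and 111.1 against wild-type signals of 23 and 8.8. The log2 fold change was 1.16 (SE 0.317, limma unadjusted p = 0.00433, adjusted p = 0.738). It was 0.46 with an offset 4 times as large, since the wild-type values lay below the offset, and the brighter Kcnd1 probe sets had 0.049 and -0.10.

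Within the ether-a-go-go family, Kcnh3, the Kv12.2 channel of forebrain neurons, gave knockout signals of 1327, 1602, 1452 and 1569.6 against wild-type signals of 1081 and 1053 on 1459107_at. All knockouts lay above both wild types, and the log2 fold change was 0.46 (SE 0.142, limma unadjusted p = 0.00916, adjusted p = 0.738). It stayed between 0.42 and 0.51 with any 1 array left out and was 0.24 after median centring. The other Kcnh3 probe sets gave 0.15, 0.11 and, on a dim one without overlap, -0.99. Kcnh1, the Kv10.1 gene, read 2923 ± 521.8 (SD, n = 4) against 2826 ± 274.9 (SD, n = 2), and the groups overlapped. Kcnh2, the hERG homologue, had a log2 fold change of -0.29, which was -0.013 without wild type 1, -0.57 without wild type 2 and -0.14 without knockout 2. Kcnq3, a subunit of the M-current that muscarinic receptors close, gave knockout signals of 4979, 5723, 5115 and 5316 against wild-type signals of 4719 and 5008. The groups overlapped, and the log2 fold change of 0.12 had a 95% confidence interval of -0.15 to 0.38.

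The silent Kv subunits form no channel alone and modify other Kv subunits. Kcng4, the Kv6.4 gene, gave knockout signals of 808.4, 404.0, 658.4 and 795.9 against wild-type signals of 1112 and 883.6. Both wild types lay above the knockouts, of which knockout 2 was the lowest. The log2 fold change was -0.58 (SE 0.267, limma unadjusted p = 0.054, adjusted p = 0.74), and it was -0.38 without knockout 2. Kcns1, the Kv9.1 gene, gave knockout signals of 62.1, 109.8, 127.0 and 49.7 against wild-type signals of 30.9 and 29.1, with both wild types below the offset and a log2 fold change of 0.74. Kcnv1, the Kv8.1 gene, gave knockout signals of 1245, 1799.9, 1346 and 1301 against wild-type signals of 1034 and 1205 on its brightest probe set, without overlap. The log2 fold change there was 0.32, or 0.21 without knockout 2, the highest array, while the other 2 Kcnv1 probe sets gave 0.057 and -0.075.

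Of the 18 K2P probe sets 0 had an unadjusted p below 0.05, against 6.76% of all probe sets. Kcnk1, the TWIK-1 gene, gave knockout signals of 11390.0, 10881, 10602 and 9382 against wild-type signals of 15534 and 11068 on its bright probe set. Wild type 1 was high and wild type 2 lay among the knockouts, so that the log2 fold change of -0.31 (limma adjusted p = 0.743) was -0.071 without wild type 1. Kcnk2, the mechanosensitive TREK-1 gene, read 1913 ± 164.9 (SD, n = 4) against 1764 ± 572.6 (SD, n = 2). Kcnk3, the acid-sensitive TASK-1 gene, gave knockout signals of 866.5, 577.7, 1017 and 1254 against wild-type signals of 1193 and 1137, with knockout 2 the lowest, and its log2 fold change of -0.36 was -0.16 without that array. Kcnk7, named after its values were seen, was the 1 K2P probe set of 18 without overlap, against 16.1% of all. It gave knockout signals of 372.0, 301.3, 330.0 and 403.1 against wild-type signals of 255.1 and 240.9.

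Of the 16 probe sets placed by symbol among calcium- or sodium-activated channels, likewise 0 had an unadjusted p below 0.05, against 6.76% of all. Kcnma1, the large-conductance BK channel that ends action potentials, gave knockout signals of 2602, 2417, 1848 and 1628 against wild-type signals of 2801 and 1775 on its brightest probe set. The mice of both groups ranged widely and overlapped, and the log2 fold change was -0.094 (SE 0.226). Of the small-conductance SK genes, which carry the afterhyperpolarisation, Kcnn2 had -0.18, or 0.14 when wild type 1 was left out, and Kcnn1 had -0.16. The single Kcnn3 probe set read 13.7 to 66.8 over the 6 arrays. Kcnt1, the sodium-activated Slack gene, gave knockout signals of 1401, 1422, 1003 and 1495 against wild-type signals of 1091 and 1516, a log2 fold change of 0.031, and its other 2 probe sets gave 0.011 and 0.0015. Kcnu1 was placed in this group by its symbol, not by how its channel opens, and was named after its values were seen. It gave the group's 1 probe set of 16 without overlap, against 16.1% of all probe sets. Its log2 fold change was 0.36, and wild type 1 was the lowest array, at 332.1 against 445.3 to 520.6 elsewhere.

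The auxiliary subunits had 15 probe sets above 0 and 14 below, against 60.3% of all above 0. After median centring 6 of 29 lay above 0, against 34.3% of all. At an unadjusted p below 0.05 there were 0 of 29, against 6.76% of all. Kcnab1 and Kcnab2, the cytoplasmic beta subunits of Kv1 channels, had log2 fold changes of -0.0092 and -0.066 on their brightest probe sets. Kcnab2 gave knockout signals of 5959.8, 7661, 7435 and 6734 against wild-type signals of 7835 and 6695. The KChIP genes, whose products bring Kv4 channels to the membrane, overlapped between the groups on their brightest probe sets. These gave log2 fold changes of -0.022 for Kcnip1, 0.0064 for Kcnip2, -0.086 for Kcnip3 and -0.068 for Kcnip4. Kcnip2 gave knockout signals of 2249.9, 4366, 2337 and 3432 against wild-type signals of 3531 and 2493, highest in knockout 2. Kcnmb4, the BK beta subunit of neurons, read 4501 ± 398.5 (SD, n = 4) against 4335 ± 144.5 (SD, n = 2). The log2 fold change came to 0.05 (SE 0.125). The 2 auxiliary probe sets without overlap were 1450370_a_at of Kcnip4, at 0.16, and 1421783_a_at of Kcnip2, at 0.53, the latter named after its values were seen. These were 2 of 29, against 16.1% of all probe sets.

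Of the non-coding transcripts, Kcnq1ot1, the antisense RNA that silences the imprinted Kcnq1 domain, had 6 probe sets. One of them, 1446255_at, gave knockout signals of 178.1, 120.2, 110.0 and 149.4 against wild-type signals of 13.3 and 113.9, where wild type 1 alone was low, and its log2 fold change of 0.88 was 0.20 without that array. On 1441588_at wild type 1 was again the lowest, at 17.5 against 65.5 to 164.9. The median over all 8 non-coding probe sets, 0.50, was 0.075 without wild type 1.

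Genes that act with potassium channels were read from a list of 44, of which 34 were found, 1 probe set each. These include auxiliary proteins from other families, scaffolds, the sodium-potassium pump, chloride cotransporters and the HCN channels. Of the 34, 0 passed the adjusted threshold in limma, 4 had an unadjusted p below 0.05, against 6.76% of all probe sets, and 16 were higher and 18 lower, against 60.3% of all higher. Amigo1, an adhesion protein that binds Kv channels, gave knockout signals of 625.1, 690.3, 658.8 and 588.3 against wild-type signals of 1041 and 898.5, a log2 fold change of -0.56. Dpp6, a partner of Kv4 channels, gave knockout signals of 3636, 3649, 3282 and 3809 against wild-type signals of 4486 and 4356, a log2 fold change of -0.30. The sodium-potassium-chloride cotransporter Slc12a2 had -0.42, and Rest, a repressor of neuronal genes, 0.50. These are the 4 with an unadjusted p below 0.05, and in each the groups did not overlap (limma adjusted p = 0.738). Of the 34 partner genes, 8 separated the groups, 4 with the knockout above and 4 below, against 16.1% of all probe sets. Without wild type 1, 0 of the 34 had an unadjusted p below 0.05 in limma, against 3.61% of all probe sets, and without wild type 2 there were 9, against 11.8% of all. Ank3, which anchors channels at the axon initial segment, gave knockout signals of 19498, 19548, 21106 and 20729 against wild-type signals of 17265 and 16830.0, and Hcn2 had a log2 fold change of 0.28, both without overlap. These partner genes were named after their values were seen.

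Knockout 2 differed from the other 5 arrays on a further set of channel probe sets. The cerebellum list, 11 of 14 genes found, had a mean log2 level of -3.21 in knockout 2 against 0.20 to 0.96 elsewhere, with all 11 markers lowest in that mouse. Its summed signal was 22767 in knockout 2, against 99843 to 138164 in the other knockouts and 132458 and 141355 in wild types 1 and 2. Pcp2, a Purkinje cell gene, read 185.8 there against 22259.7 to 34049.7 on the other arrays. Knockout 2 was also the lowest for 7 of the 8 hypothalamus and midbrain markers, and the highest for 6 of 7 striatum and 5 of 7 cortex and hippocampus markers. No marker of these lists lay below 49.6 on all arrays.

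In that mouse 18 channel probe sets, or 10.8%, lay above the other 5 arrays by a log2 gap of over 0.2, against 5.66% of all probe sets. Of these 18, 11 were Kv probe sets, a class that holds 65 of the 167. Below the other 5 lay 12, or 7.19%, against 6.49% of all. Kcnf1, a silent Kv subunit, read 2645 in knockout 2 against 1307 to 1655 on the other arrays. Kcnh5, the Kv10.2 gene, read 684.6 against 129.8 to 386.8. Kcnq5, an M-current subunit, read 3232 against 1983 to 2478, and Kcnk4, the TRAAK gene, 561.8 against 170.0 to 413.7. All 3 Kcnv1 probe sets were highest in knockout 2, as was 1436275_at of Kcnip2. Kcna5, the Kv1.5 gene, read 493.6 in that mouse against 227.3 to 359.6, and Kcnj4 1064 against 487.3 to 842.7. The dim 1450515_at of Kcnj11 read 178.0 against 10.6 to 110.2. On the low side, Kcng4 read 404.0 against 658.4 to 1112, Kcnk3 577.7 against 866.5 to 1254 and Kcnk10, the TREK-2 gene, 378.8 against 564.4 to 659.1. Kcnk12, the THIK-2 gene, read 43.9 against 108.6 to 350.6, and Kcnh2 593.8 against 842.8 to 1269. Dimmer probe sets of Kcnk5, Kcna3 and Kcnj9 were lowest there as well, at 46.9 against 107.1 to 217.3, at 74.9 against 109.0 to 160.9 and at 22.8 against 52.5 to 151.0. The part of regional content in these values was not tested.

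**Figure D3:**
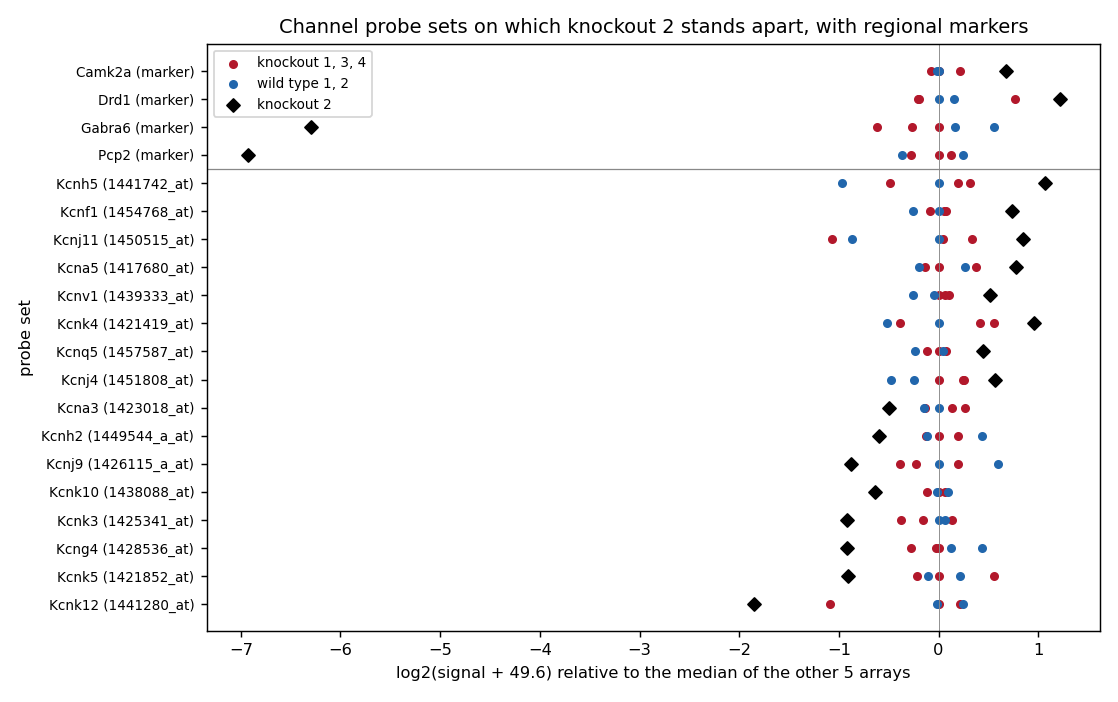
Log2(signal + 49.6) of the 8 channel probe sets with the widest gap of knockout 2 above, and the 8 with the widest gap below, the other 5 arrays, relative to the median of those 5, with 4 regional markers above the grey line. By this choice of probe sets the black diamond of knockout 2 lies at the end of every channel line. Pcp2, at 185.8 against 22260 to 34050 on the other arrays, lies farthest to the left.

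Wild type 1 was the lowest array by a gap of over 0.2 for 23 channel probe sets, or 13.8%, against 15.4% of all, and the highest for 10, or 5.99%, against 6.76%. Among the probe sets it was lowest for, the widest gaps were those of Kcnq1ot1 on 1446255_at, given above, and of Kcnd3 on 1442555_at, at 51.2 against 168.4 to 212.5. Kcnq5 on 1441071_at read 219.0 against 365.2 to 679.6, and Kcnj3 on 1444336_at 23.5 against 88.6 to 226.9. On the high side, Kcnip1 on 1433156_at read 143.6 against 33.5 to 60.7, and Kcnn2 read 1553 against 986.6 to 1177. Wild type 1 was also the highest for Kcnj8, Kcnh2, Kcnc4 on 1425089_at and Kcnd3 on the dim 1447513_at. The shares for wild type 1 lay near those of the whole array.

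Probe sets of the same gene often gave different values. Of the 84 genes 38 had 1 probe set and 46 had 2 to 6. Among those 46, all probe sets lay on the same side of 0 for 22 genes and on both sides for 24. In 8 of the latter, Kcnd1, Kcnd2, Kcnd3, Kcnh3, Kcnj6, Kcnj15, Kcnv1 and Kcnip4, at least 1 probe set separated the groups without overlap. Of all probe sets 16.1% separated the groups, and these 8 genes had 3 to 5 probe sets each. For Kcnh3 the dim 1431690_at gave knockout signals of 91.4, 46.3, 40.4 and 20.1 against wild-type signals of 116.5 and 170.5, below in the knockout, while 1459107_at lay above in the knockout, both without overlap. No other channel gene had probe sets that separated the groups in opposite directions.

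**Figure D4:**
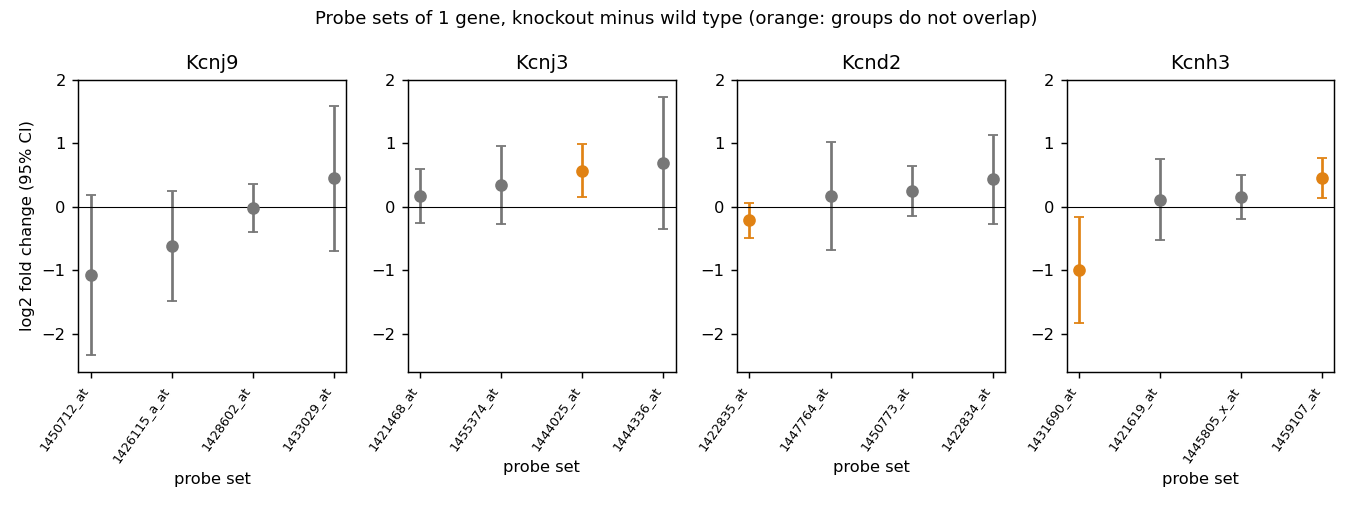
Log2 fold change with its 95% confidence interval for each of the 4 probe sets of Kcnj9, Kcnj3, Kcnd2 and Kcnh3, orange where the groups stayed apart. All 4 Kcnj3 values lie above 0 (3 after median centring), while Kcnj9 runs from -1.08 to 0.45 and Kcnh3 from -0.99 to 0.46.

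Meltf lies on chromosome 16, as do 4 channel genes, Kcne1, Kcne2, Kcnj6 and Kcnj15, the last pair being neighbours. Of their 11 probe sets 8 had a log2 fold change above 0 and 3 below, against 60.3% of all probe sets above 0. The groups did not overlap on 2 of the 11, against 16.1% of all, and 2 passed a filter that leaves out the dimmest 40% of probe sets. Kcne2, an accessory subunit found in the choroid plexus and named after its values were seen, gave knockout signals of 295.5, 241.5, 285.6 and 431.3 against wild-type signals of 277.3 and 635.2, a log2 fold change of -0.41. Wild type 2 was the highest of the 6 and wild type 1 lay among the knockouts.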

How the data were processed

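The authors deposited linear signal intensity values for 6 arrays, 1 per mouse. These came from GCOS 1.3, per the submitters' processing notes, and no source used here says how probes were summarised or arrays scaled. The 64 control probe sets were left out. Symbols came from the platform annotation, where 34945 probe sets had 1 symbol, 932 several and 9160 none, and all 167 channel symbols matched RefSeq (GRCm38.p6) by gene identifier. Groups came from the labels, which give no batch or pairing, so p-values measure the spread between mice and arrays, and the array numbers follow the order of deposit.

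Values were fitted as log2(signal + 49.6) in limma 3.58.1 (R 4.3.3, lmFit, then eBayes with a trend), on all 45037 probe sets without a dim filter (4 residual and 5.91 prior degrees of freedom), 2-sided, with Benjamini-Hochberg adjustment and a threshold of 0.05. Files were read and drawn in Python 3.11.15. The code was tested on simulated data.

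Named probe sets were the 8 with the smallest p in each direction, the brightest probe set of 30 genes of a list of 34, the 8 with the widest gap of knockout 2 or wild type 1 from the other arrays on each side, and genes whose probe sets disagreed with at least 1 separating the groups. Any other is said to be named after its values were seen. Members and lists were chosen with earlier results of these data known. The other genes of that list are not reported here. List levels are mean log2 values relative to each gene's mean and to all probe sets on that array. The alternatives were quantile normalisation, median centring, offsets of 198.4 and 12.4, a filter on the dimmest 40%, no trend, array weights, each array left out in turn and, chosen after seeing the data, knockout 2 and wild type 1 left out together.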

Additional observations from a re-analysis of the deposited data

Results flagged for a closer look

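In 3 of the 79 named probe sets 1 knockout mouse lay far from the other 3, by the share of the group's log2 range that the gap to its nearest neighbour took up, past Dixon's 95% critical value for 4 samples. Chance gives such a gap in about 1 of 20 groups. Knockout 1 lay low for Kcnh3 on 1421619_at, at 450.8 against 890.2 to 982.2, with a share of 0.871. Knockout 3 lay low for Kcnt1 on 1439486_at, at 1003 against 1401 to 1495, with a share of 0.837. Knockout 1 lay high for Kcnj2 on 1450503_at, at 13.8 against 5 to 5.5, with a share of 0.939, all values being below the offset of 49.6.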

How the results depend on the processing

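No channel probe set passed under any alternative run. The count with an unadjusted p below 0.05, 9 in the reported fit, was 15 after median centring and 9 to 23 with 1 array left out, the 23 coming without wild type 2, where 171 of all probe sets passed and the smallest channel adjusted p in limma was 0.0566. The channel median of 0.059 was -0.0023 after quantile normalisation, -0.15 after median centring, 0.013 without knockout 2 and wild type 1, and 0.044 to 0.13 with 1 array left out. Median centring moved the median of all probe sets from 0.078 to -0.14. Of the 16 probe sets with the smallest p, 8 in each direction, 1 changed direction: 1450185_a_at of Kcnj15, from -1.34 to 0.015 with 1 array left out. Being picked by p, these 16 do not show how stable the direction of the other named probe sets was. Of 865 values of the 63 others, 64 moved by over 1 SD, and these fell on 35 of the 63 probe sets. Some of the 63 changed sign with 1 array left out, such as Kcna2 on 1439872_at (-0.076 to 0.71) and Kcnn2 (-0.49 to 0.14). Others kept theirs, such as Kcnj16 on 1436163_at (-0.37 to -0.17). Dim probe sets depend on the offset, and signal near it limits them. No paired analysis was possible because the labels give no numbers shared between the groups.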

Other observations

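Kcnab3, a beta subunit of Kv1 channels, gave knockout signals of 252.7, 260.0, 259.4 and 19 against wild-type signals of 216.8 and 211.8 on 1421790_a_at, so that knockout 4 alone was low, and 175.2 in that mouse against 290.8 to 470.8 on the other probe set of the gene, 1423950_at. It was chosen after its values were seen. The 2 probe sets of Kcnj1, the ROMK channel of the kidney, also named after its values were seen, stayed below 49.6 on all 6 arrays, as did 9 of the 167 channel probe sets in all, while 115 stayed above it on every array.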
